A study of Mus musculus with 33 samples.

Results

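Proneural factors are transcription factors that push dividing progenitors to leave the cell cycle and become neurons. The 8 genes described here are 7 basic helix-loop-helix (bHLH) factors of retinal neurogenesis (Atoh7, Neurog2, Neurod1, Neurod4, Bhlhe22, Ptf1a and Atoh8) and Insm1, a zinc finger factor that acts beside them. They were taken by gene symbol, 8 of the 47729 genes in the deposited count tables. All 8 passed the filter on low counts, together with 18150 genes in all that were tested. Atoh7 and Ptf1a would not have passed without their day 0 libraries, where they were highest. Their falls from day 0 are therefore descriptions, because the filter drew on the same high values.

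The libraries hold bulk RNA from retinal progenitor cells of C57BL/6J mice, isolated at embryonic day 14 and grown in culture. There were 33 libraries in 11 groups of 3. At day 0 the cells were untreated, cone primed (cone induction with COCO, a secreted protein that binds BMP, TGF-beta and Wnt ligands) or rod primed (rod induction with taurine and retinoic acid). At days 5, 12, 21 and 35 only cone and rod cultures were profiled, under those same agents, so no untreated culture exists after day 0. The labels leave the culture protocol to a manuscript and do not say whether replicates were separate cultures or litters. The p-values therefore measure the spread between these libraries, which may be technical. How long priming lasted before day 0 is not given in the labels.

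In the embryonic retina the bHLH factors work in sequence. Neurog2 marks progenitors that are about to divide for the last time. Atoh7 opens the way to ganglion cells, Ptf1a to amacrine and horizontal cells, and Neurod1 and Neurod4 to photoreceptors, amacrine cells and bipolar cells. Bhlhe22, also called Bhlhb5, is needed for some amacrine and bipolar subtypes, and Atoh8, also called Math6, has been tied to the choice of neurons over glia in retinal explants. The factors bind the E-box CANNTG as partners of the widely expressed E proteins (Tcf3, Tcf4, Tcf12). Id proteins take up those partners, Hes and Hey repressors silence proneural genes under Notch signalling, and proneural factors in turn switch on Notch ligands such as Dll1.

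The stretches just upstream of 4 of these genes are printed here because those genes moved in the clearest ways (Atoh7 down first, Neurod1 and Neurod4 down together later, Atoh8 up) and because the E-box is the site that bHLH factors bind. Capitals mark each E-box. The pattern CANNTG matches on both strands alike, though the middle bases of a given site, such as CAGATG, may read differently on the other strand. The sequences come from RefSeq (GRCm38.p6), run 5′ to 3′ on the gene's own strand, and stop before the first base of any annotated transcript.

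Atoh7, plus strand, chr10:63099535-63099650: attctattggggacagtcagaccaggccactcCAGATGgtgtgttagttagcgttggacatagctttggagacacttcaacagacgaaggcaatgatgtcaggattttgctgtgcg

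Neurod1, minus strand, chr2:79456752-79456886: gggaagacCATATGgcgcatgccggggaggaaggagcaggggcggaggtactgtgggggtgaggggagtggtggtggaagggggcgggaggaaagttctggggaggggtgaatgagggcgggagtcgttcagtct

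Neurod4, minus strand, chr10:130280255-130280504: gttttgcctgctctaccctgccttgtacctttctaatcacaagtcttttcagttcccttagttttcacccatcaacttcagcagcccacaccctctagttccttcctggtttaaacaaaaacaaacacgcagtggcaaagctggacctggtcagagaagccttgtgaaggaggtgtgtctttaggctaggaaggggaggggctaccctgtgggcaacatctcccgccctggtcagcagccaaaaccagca

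Atoh8, minus strand, chr6:72235781-72235827: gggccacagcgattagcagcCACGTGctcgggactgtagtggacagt

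In the full windows of 250 bases before a RefSeq start, the E-box occurred 3 times at Atoh7 (CAGATG once and CACCTG at the other sites), once at Neurod1 (CATATG), and as CACGTG and CAGCTG at Atoh8. No E-box was found in the windows of Neurod4, Neurog2 or Ptf1a. The Neurog2 window (chr3:127632886-127633135) lies inside the RefSeq span of that gene, which starts at 127632733. For Neurog2 the scanned stretch is therefore not upstream of the whole gene. Most of the Atoh8 window (chr6:72235578-72235827) also lies inside the RefSeq span of its gene, which ends at 72235780, and so does its CAGCTG. The CACCTG sites of Atoh7 lie past the GENCODE M21 start of that gene, 63099651. Of 32851 RefSeq promoter windows of this length, 66.2% held at least 1 E-box, 3.46% held CATATG and 17.2% held CACCTG. Neurod1 and Neurod4, which moved together, therefore do not share an E-box in these windows, and the matches are descriptions of sequence only. Bhlhe22 and Insm1 are named without a promoter.

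Positions are GRCm38. Neurog2 lies at chr3:127633135-127635631 and Bhlhe22 at chr3:18054174-18057517, both on the plus strand. Insm1 (chr2:146221921-146225020, plus) and Ptf1a (chr2:19445663-19447501, plus) share chromosome 2 with Neurod1 (chr2:79452521-79456751, minus). Neurod4 lies at chr10:130268153-130280240 (minus) and Atoh8 at chr6:72206177-72235577 (minus). The authors' model of Atoh7 (chr10:63100156-63100605, plus) covers 450 bases, against 1629 exonic bases in GENCODE M21, of which 447 are coding. That position comes from the deposited TPM tables, and the annotation used for counting is not stated. If counting used the same model, counts of Atoh7 leave out its untranslated exon sequence, and its level is a low estimate. Neurod1 overlaps Cerkl on the same strand and the noncoding Gm26755 on the other, and Ptf1a overlaps its antisense RNA Ptf1aos. Whether counting used strand is not given in the sources used here, so reads from those partners cannot be told apart.

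Library totals ranged from 7511837 to 19166442 counts in genes (median 12985662), and 26.9% to 34.9% of the counted reads fell in genes. Levels are given as CPM, each gene's count scaled to the size of its library after TMM normalization, and 3 counts over a group of libraries correspond to 0.0617 to 0.105 CPM. The retinal progenitor list (10 genes such as Pax6, Lhx2 and Rax) had every gene detected in all 3 day 0 groups, at a summed 1174 to 2011 CPM. Photoreceptor precursor genes were also present at day 0, at a summed 682 to 1346 CPM, and at 25.2 to 52.3 CPM by day 35. Rod day 12 replicate 2 differed most from a replicate of its group, and held photoreceptor precursor genes at a summed 924 CPM, against 75.4 and 147.7 CPM in replicates 1 and 3, and cell cycle genes at 668 CPM, against 1631 and 1169 CPM. Cone day 12 replicate 2 lay above its replicates in the same photoreceptor list (286 CPM, against 80.3 and 83.7 CPM). Where leaving out either library changed a call on the 8 genes, both values are given. By the chi-square per degree of freedom of their counts, the replicates of other groups were uneven too: cone day 21 replicate 1 lay further from replicates 2 and 3 (52.5 and 41.2) than these did from each other (9.35), as did rod day 5 replicate 2 (46.7 and 32.9, against 13.2). Rod day 12 replicates 1 and 2 gave the highest value, 100.5.

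Levels of the 8 genes are comparable only per length. In untreated cells Neurod4 stood highest at 138 ± 15.6 CPM per kilobase of exon (SD, n = 3), followed by Neurod1 at 108 ± 14.9. Neurog2 (23.1 ± 0.458), Insm1 (23.0 ± 8.18), Bhlhe22 (21.6 ± 2.64) and Atoh7 (19.9 ± 8.95, per kilobase of the authors' shorter model) did not differ beyond their spread. The Atoh7 value holds only if its counts were made on that model. Ptf1a (1.38 ± 0.537) and Atoh8 (0.315 ± 0.113) came last. By day 35 the order had turned over: Atoh8 led in both conditions, at 19.5 ± 2.60 CPM per kilobase in cone and 32.0 ± 5.23 in rod cultures, followed by Bhlhe22 at 18.0 ± 3.30 and 10.8 ± 1.77, values that in cone cultures did not differ from Atoh8 beyond their spread. Neurod4 was then at 3.71 ± 2.32 and 1.62 ± 0.441 CPM per kilobase.

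**Figure D1:**
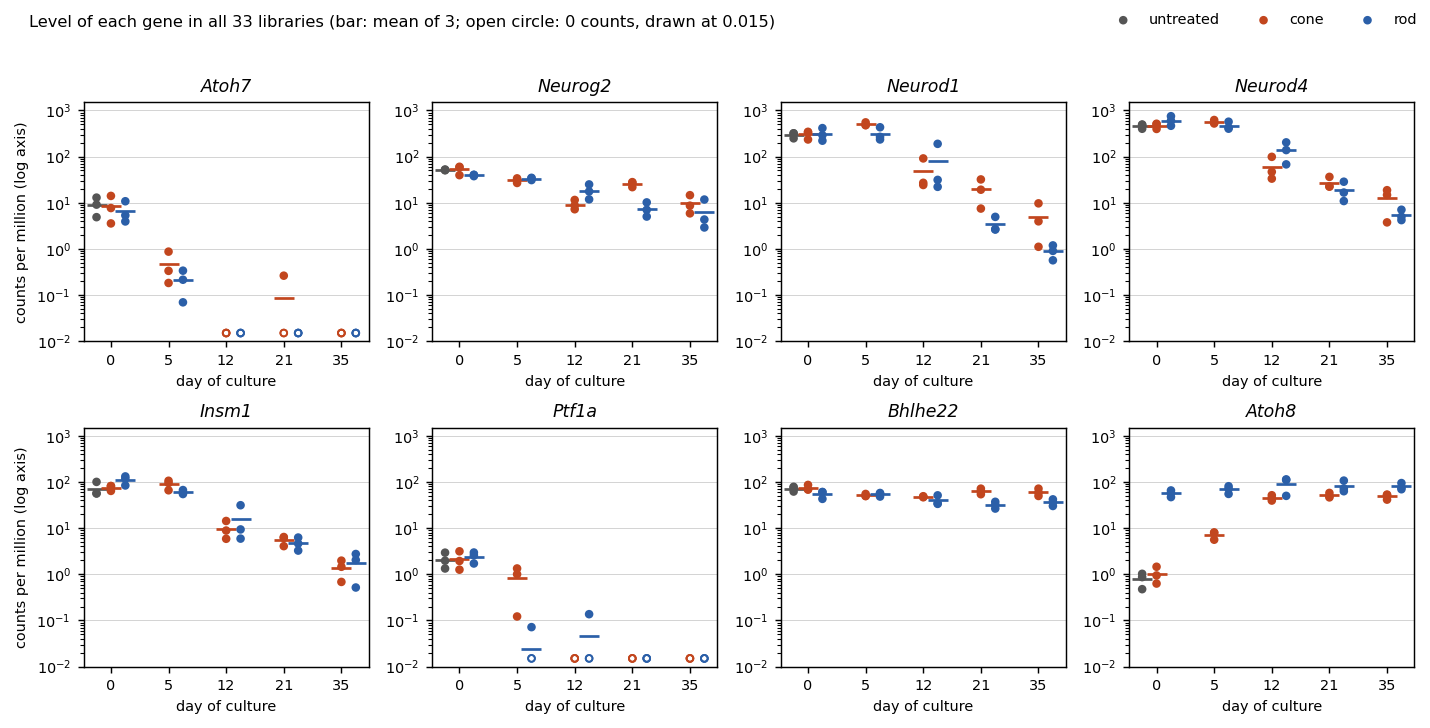
Level of each of the 8 genes in every library, in CPM on a log axis, against day of culture. Points are libraries (grey untreated, red cone, blue rod), bars are group means of 3, and open circles are libraries with 0 counts; Atoh7 and Ptf1a drop out after day 5, Neurod1, Neurod4 and Insm1 are lower from day 12, Bhlhe22 stays between 26.6 and 86.4 CPM, and Atoh8 is high in the rod condition from day 0 and reaches at least 39.6 CPM in the cone condition from day 12.

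The first comparison asked what priming had done by day 0. Atoh8 was near its limit in untreated cells (1.02, 0.867 and 0.475 CPM in replicates 1, 2 and 3) and in cone primed cells (0.629, 1.46 and 0.943 CPM), but stood at 47.1, 57.5 and 65.6 CPM in rod primed cells. Every rod primed library lay far above all 6 others. The log2 fold change, rod primed minus untreated, was 6.22 ± 0.36 (SE), or 74.5-fold, with an adjusted p of 2.52e-12 (edgeR's quasi-likelihood test, Benjamini-Hochberg adjustment over 18150 genes). Cone primed minus rod primed gave -5.73 ± 0.35, adjusted p = 9.95e-12.

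Atoh8 was the 1 called member of 8 between rod primed and untreated cells, where 10.3% of all genes were called, and again the 1 called member between cone primed and rod primed cells, where 7.27% were called. Those comparisons share the rod primed libraries. Between cone primed and untreated cells 0 of 8 members were called, and percent called over all genes was 0%. There edgeR found 200 genes and 0 members at an unadjusted p under 0.05, and DESeq2 and voom also called 0 genes. Levels of the other 7 genes at day 0 mostly overlapped or lay close between treatments. Neurog2, at 37.7 to 40.3 CPM in rod primed and 50.5 to 52.6 CPM in untreated cells, did not overlap between them and was not called. Its cone primed libraries (39.6 to 60.2 CPM) overlapped both. Neurod1 had group means of 296 ± 40.6, 305 ± 60.7 and 309 ± 97.9 CPM (SD, n = 3) without priming, with cone priming and with rod priming, and Neurod4 461 ± 52.2, 472 ± 64.5 and 605 ± 143 CPM. Bhlhe22 was at 43.1 to 60.6 CPM in rod primed cells and 62.1 to 86.4 CPM in the other 6 libraries, without overlap, yet the difference between cone primed and rod primed cells was not called (0.45 ± 0.17, adjusted p = 0.114). Insm1, at 64.2 to 81.9 CPM in cone primed and 84.1 to 132 CPM in rod primed cells, did not overlap between them and was not called either (-0.56 ± 0.41, adjusted p = 0.481).

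Atoh7 and Ptf1a, the genes for ganglion and for amacrine and horizontal fates, left first. Atoh7 read 7.68, 14.1 and 3.56 CPM in cone primed replicates 1, 2 and 3, and 3.93, 5.34 and 10.8 CPM in rod primed replicates. At day 5 it read 0.334, 0.182 and 0.872 CPM in cone cultures (5, 3 and 15 counts) and 0.337, 0.214 and 0.0694 CPM in rod cultures (3, 3 and 1 counts). The day 0 and day 5 libraries did not overlap in either condition. The log2 change was -4.15 ± 0.70 in cone cultures (adjusted p = 0.000527) and -5.06 ± 0.81 in rod cultures (adjusted p = 0.000440). From day 12 Atoh7 had 0 counts in every library except cone day 21 replicate 1, with 2 counts. In cone cultures day 12 was at least 5.30-fold lower than day 5 (adjusted p = 0.0146), a call that was lost without cone day 5 replicate 3 (0.0577). By day 35 Atoh7 was at least 100.5-fold lower than at day 0 in cone cultures and at least 88.3-fold lower in rod cultures, with 3 counts over the group as the floor.

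Ptf1a was sparse throughout. It read 3.15, 1.94 and 1.26 CPM in cone primed and 2.58, 1.71 and 2.96 CPM in rod primed cells, groups that overlapped. At day 5 cone cultures still held 15, 2 and 23 counts (1.00, 0.122 and 1.34 CPM), while the 3 rod cultures held 0, 1 and 0 counts. All cone libraries lay above all rod libraries. Cone over rod at day 5 was a ratio of 30.7 (95% counting interval 5.20 to 1242, adjusted p = 0.0163). That call was lost without cone day 5 replicate 3 (0.0621), without rod day 5 replicate 1 (0.0679) or without rod day 5 replicate 3 (0.0737). From day 0 to day 5 rod cultures fell by a ratio of 90.5 (interval 15.7 to 3625, adjusted p = 0.000762), whereas the change in cone cultures was not called (-1.34 ± 0.66, adjusted p = 0.158). The difference between those changes was itself not called (adjusted p = 0.151). In cone cultures Ptf1a was at 0 counts from day 12, at least 9.40-fold lower than at day 5 (adjusted p = 0.00162). Rod cultures had 2 counts in day 12 replicate 2 and 0 elsewhere. By day 35 it was at least 25.2-fold lower than at day 0 in cone and 31.9-fold lower in rod cultures. Both Atoh7 and Ptf1a passed the filter on low counts through day 0, so their falls from day 0 are descriptions.

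Lists of factors tied to Ptf1a and Atoh7 were made with earlier results of these data known. Not every gene listed acts after them. Of 10 amacrine and horizontal factors, 8 were lower and 0 higher at day 35 than at day 0 in cone cultures, and 10 were lower in rod cultures. Over all genes 57.7% and 55.6% were called in these comparisons. The list's median log2 change was -3.62 and -3.84, against 0.03 and 0.04 over all genes. Prdm13, an amacrine factor known to act downstream of Ptf1a, differed at day 5 in the same direction as Ptf1a, at 31.5 CPM in cone and 3.00 CPM in rod cultures on average (log2 difference 3.34 ± 0.53, adjusted p = 0.000123). Tfap2a, which marks amacrine cells, was higher in cone cultures at day 5 (1.67 ± 0.42, adjusted p = 0.0116) and at day 35 (2.62 ± 0.45, adjusted p = 0.000204), when Ptf1a itself was at 0. Foxn4, on the amacrine and horizontal list although it acts upstream of Ptf1a, went from 466 counts over the cone primed libraries to 0 at day 35. Of 9 ganglion cell factors, 6 were lower and 1 higher at day 35 in cone cultures, and 4 were lower and 2 higher in rod cultures, against the same shares over all genes. The medians were -2.74 and -0.85. Pou4f2 and Pou4f3, the ganglion cell factors downstream of Atoh7, were at 0 counts in both conditions at day 35, from 400 and 166 counts in cone primed and 149 and 41 counts in rod primed cells. Pou4f1 was at 53.5 CPM in cone primed and 14.1 CPM in rod primed cells on average (1.93 ± 0.48, adjusted p = 0.0124), while Atoh7 overlapped between them.

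Neurod1, Neurod4 and Insm1 fell after day 5. From day 0 to day 5 cone cultures moved up without overlap in Neurod1 (0.73 ± 0.58, adjusted p = 0.396) and Neurod4 (0.26 ± 0.40, adjusted p = 0.677), and rod cultures moved down without overlap in Insm1 (-0.89 ± 0.41, adjusted p = 0.131), none of them called. Neurod1 read 480, 552 and 484 CPM in cone day 5 replicates 1, 2 and 3 and 24.3, 91.4 and 27.1 CPM at day 12. The day 5 and day 12 libraries were far apart, with replicate 2 the highest on both days. The log2 change was -3.40 ± 0.64 (adjusted p = 0.000115), and without cone day 12 replicate 2 it was -4.30. In rod cultures Neurod1 read 235, 433 and 268 CPM at day 5 and 22.1, 189 and 31.3 CPM at day 12. Replicate 2 at day 12 lay near the day 5 level and the others well below it. The change was -1.95 ± 0.60 (adjusted p = 0.0242), and -3.59 ± 0.58 (adjusted p = 4.66e-05) without rod day 12 replicate 2. With that library kept, the call was lost without rod day 5 replicate 2 (0.108), rod day 12 replicate 1 (0.121) or rod day 12 replicate 3 (0.125). The cell cycle and photoreceptor values of that library are given above; their part in these changes was not tested.

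Neurod4, which shares targets with Neurod1, fell over the same interval. It went from 557, 522 and 622 CPM to 46.8, 98.9 and 33.3 CPM in cone cultures (-3.25 ± 0.44, adjusted p = 1.39e-06). Rod cultures went from 424, 571 and 403 CPM to 67.9, 204 and 139 CPM (-1.77 ± 0.41, adjusted p = 0.00304). No library of day 12 reached the day 5 range in either condition. Insm1, which promotes the exit of neural progenitors from the cell cycle, went from 66.1, 106 and 95.4 CPM to 8.86, 14.3 and 5.88 CPM in cone cultures (-3.20 ± 0.45, adjusted p = 2.88e-06) and from 59.0, 66.9 and 54.9 CPM to 5.93, 31.4 and 9.37 CPM in rod cultures (-1.95 ± 0.43, adjusted p = 0.00178). Rod day 12 replicate 2 was again the highest. Without it the rod changes were -2.22 for Neurod4 and -3.02 for Insm1, and without cone day 12 replicate 2 the cone changes were -3.83 and -3.62, all of them called. The cone and rod changes from day 5 to day 12 were not called different for Neurod1, Neurod4 or Insm1 with all libraries (adjusted p from 0.136 to 0.328). Without cone day 12 replicate 2 the difference was called for Neurod4 (-2.06, adjusted p = 0.0349, against -1.48 with it).

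From day 12 to day 21 the call depended on the condition and on that library. In rod cultures Neurod1 fell to 2.63, 4.94 and 2.67 CPM (-4.57 ± 0.73, adjusted p = 0.000390), a change of -2.98 ± 0.58 (adjusted p = 0.00539) without rod day 12 replicate 2. Neurod4 fell to 10.9, 28.6 and 16.6 CPM (-2.87 ± 0.44, adjusted p = 0.000325; -2.47 without that library). Insm1 fell to 4.63, 6.25 and 3.26 CPM, which overlapped day 12 (-1.73 ± 0.46, adjusted p = 0.0165). That call was lost without rod day 12 replicate 2 (-0.71, adjusted p = 0.390). It was lost also without rod day 21 replicate 1 (0.0557) or replicate 3 (0.0954). In cone cultures Neurod1 read 7.48, 32.0 and 19.2 CPM at day 21 and overlapped day 12 (-1.27 ± 0.62, adjusted p = 0.277). Neurod4 (-1.14 ± 0.42, adjusted p = 0.136) and Insm1 (-0.82 ± 0.48, adjusted p = 0.380) were not called there either.

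By day 35 Neurod1 read 1.11, 9.70 and 3.95 CPM in cone and 1.19, 0.566 and 0.904 CPM in rod cultures. No day 35 library came near a day 0 library. The log2 change from day 0 was -5.95 ± 0.75 in cone (62.0-fold, adjusted p = 1.55e-07) and -8.43 ± 0.90 in rod cultures (345.7-fold, adjusted p = 1.16e-08). For Neurod4 it was -5.25 ± 0.49 and -6.81 ± 0.53, and for Insm1 -5.78 ± 0.56 and -6.02 ± 0.55, each with an adjusted p of at most 1.31e-09. Between day 21 and day 35 in rod cultures Neurod4 alone of all 8 genes was called (-1.79 ± 0.47, adjusted p = 0.0482), and the call was lost in 5 of 6 fits that left out 1 of the 6 libraries compared. In bulk RNA, fewer cells of a type and less RNA per cell cannot be told apart.

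Neurod1 differed between conditions late. At day 5 its cone libraries already lay above its rod libraries, but the difference was not called (0.69 ± 0.58, adjusted p = 0.522). At day 21 it was 5.84-fold higher in cone than in rod cultures (log2 2.55 ± 0.72, adjusted p = 0.0237), with every cone library above every rod library. The call was lost without cone day 21 replicate 2 (0.130), rod day 21 replicate 1 (0.0791) or rod day 21 replicate 3 (0.1003). At day 35 the difference was of like size with a wider error (2.46 ± 0.95, adjusted p = 0.0937), and the libraries overlapped. At day 12 its direction hung on 1 library: cone minus rod was -0.76 ± 0.60, and 0.84 ± 0.52 without rod day 12 replicate 2, neither of them called. Over days 5 to 35 the mean difference was 1.24 ± 0.36 (adjusted p = 0.0116; 0.0511 without cone day 35 replicate 2). Neurod4 and Insm1 were called on no day with all libraries kept. At day 12 Neurod4 was lower in cone than in rod cultures without cone day 12 replicate 2 (-1.78, adjusted p = 0.0107), against -1.19 with it (adjusted p = 0.0636). Insm1 at day 12 was at -0.68 with all libraries and 0.34 without rod day 12 replicate 2, neither of them called.

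**Figure D2:**
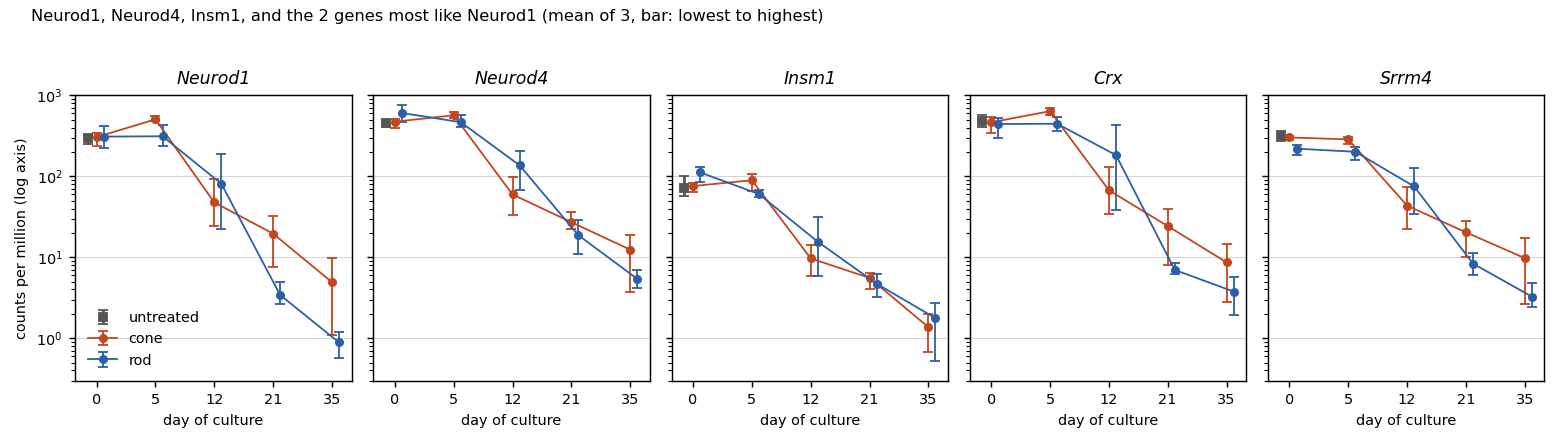
Mean level in CPM on a log axis of Neurod1, Neurod4, Insm1 and of Crx and Srrm4, the 2 genes most like Neurod1, by day and condition. Bars run from the lowest to the highest of 3 libraries; the 5 genes are lower on average at day 12 than at day 5 in both conditions, and the rod bars at day 12 are long, with replicate 2 at 189 CPM for Neurod1.

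The photoreceptor precursor list moved beside these genes. Of its 8 genes, 7 were lower and 0 higher at day 12 than at day 5 in cone cultures (43.2% of all genes were called), with a median log2 change of -3.49, against 0.03 over all genes. In rod cultures the timing hung on rod day 12 replicate 2. With it 2 genes were lower from day 5 to day 12 and 7 from day 12 to day 21. The shares of all genes called were 18.3% and 11.2%. Without it the counts were 7 and 2, and the shares 24.4% and 2.99%. Crx, the photoreceptor factor with the highest likeness to Neurod1, went from 637 CPM at cone day 5 to 8.65 CPM at cone day 35 on average. Prdm1, which steers precursors to photoreceptors and away from bipolar cells, fell from 190.2 to 6.43 CPM between cone day 5 and day 12 (-4.88 ± 0.62, adjusted p = 6.69e-07). Of 6 genes tied to Insm1 or to neuroendocrine secretion, 4 were lower and 1 higher at day 35 than at day 0 in each condition, with medians of -2.92 in cone and -2.36 in rod cultures, where 57.7% and 55.6% of all genes were called. Insm2, its closest relative, went from 310 counts in cone primed libraries to 2 at day 35 and from 138 in rod primed libraries to 0. Scg2, a secreted granin, stood higher under cone than under rod priming (2.29 ± 0.34, adjusted p = 5.84e-05), and again at day 35 (2.59 ± 0.34, adjusted p = 7.83e-06), where Insm1 was not called.

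Neurog2 followed a course of its own. In cone cultures it read 26.9, 31.0 and 33.8 CPM at day 5 and 7.23, 11.5 and 8.74 CPM at day 12, then rose to 21.8, 27.1 and 28.0 CPM at day 21 and fell to 5.89, 14.6 and 8.64 CPM at day 35. No 2 successive days overlapped. The steps were -1.73 ± 0.34 (adjusted p = 0.000205), 1.48 ± 0.34 (adjusted p = 0.0168) and -1.40 ± 0.34 (adjusted p = 0.0428). The rise at day 21 was lost without cone day 12 replicate 1 (0.0718), cone day 12 replicate 3 (0.0803) or cone day 21 replicate 2 (0.0578), and was 1.68 (adjusted p = 0.0336) without cone day 12 replicate 2. The fall at day 35 was lost without cone day 21 replicate 2 (0.220) or replicate 3 (0.139), or cone day 35 replicate 1 (0.228) or replicate 3 (0.212).

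In rod cultures no rise of Neurog2 was called, and it read 31.0, 34.0 and 34.6 CPM at day 5, 11.9, 25.0 and 17.6 CPM at day 12 and 5.02, 7.03 and 10.2 CPM at day 21. Each day lay below the one before without overlap. The step from day 5 to day 12 was -0.87 (adjusted p = 0.0646), and -1.22 (adjusted p = 0.0142) without rod day 12 replicate 2. The step from day 12 to day 21 was -1.29 ± 0.34 (adjusted p = 0.0165). That call was lost without rod day 12 replicate 2 (-0.99, 0.140), rod day 21 replicate 1 (0.0893) or rod day 21 replicate 2 (0.0502). At day 21 all cone libraries stood above all rod libraries, with a log2 difference of 1.79 ± 0.35 (3.45-fold, adjusted p = 0.00118). The day 12 to day 21 step itself differed between conditions by 2.76 ± 0.49 (adjusted p = 0.0123; 0.0614 without cone day 12 replicate 3). By day 35 Neurog2 was 5.44-fold lower than at day 0 in cone and 6.28-fold lower in rod cultures.

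Bhlhe22 was the steadiest of the 8. Its 33 libraries ran from 26.6 to 86.4 CPM, and at day 35 it read 71.8, 49.8 and 59.1 CPM in cone and 42.1, 36.3 and 30.2 CPM in rod cultures. All cone libraries lay above all rod libraries at day 21 and at day 35. Cone minus rod was 0.98 ± 0.17 (1.97-fold, adjusted p = 0.000457) at day 21 and 0.74 ± 0.17 (1.67-fold, adjusted p = 0.00450) at day 35. Over time it fell from day 0 to day 5 in cone cultures (-0.54 ± 0.17, adjusted p = 0.0233). That call was lost without cone primed replicate 3 (0.160), cone day 5 replicate 1 (0.106), replicate 2 (0.108) or replicate 3 (0.0565). From day 5 to day 12 in rod cultures it was not called (-0.44, adjusted p = 0.0765), but it was without rod day 12 replicate 2 (-0.70, adjusted p = 0.00317). In rod cultures it was lower at day 35 than at day 0 (-0.60 ± 0.17, adjusted p = 0.00464). Prdm8, known as its partner in a repressor complex, averaged 3.00 CPM in cone and 0.453 CPM in rod cultures at day 35 (2.70 ± 0.83, adjusted p = 0.0311).

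Atoh8 was the one gene of the 8 called higher at day 35 than at day 0, and this in cone cultures. In cone cultures it read 5.61, 7.90 and 8.08 CPM at day 5, 51.7, 45.2 and 39.6 CPM at day 12, 58.0, 49.1 and 46.4 CPM at day 21 and 52.0, 53.4 and 41.5 CPM at day 35. Both early steps were free of overlap, and from day 12 the days overlapped. The steps were 2.76 ± 0.37 from day 0 to day 5 (adjusted p = 6.45e-06) and 2.65 ± 0.26 from day 5 to day 12 (adjusted p = 1.71e-08). In rod cultures it read 81.0, 55.2 and 71.8 CPM at day 5 and 114, 50.1 and 111 CPM at day 12, and no step was called. The low library at rod day 12 was replicate 2, and without it the rod step from day 5 to day 12 was called (0.66 ± 0.21, adjusted p = 0.02002).

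The gap between conditions in Atoh8 narrowed over time. Cone minus rod went from -5.73 at day 0 to -3.26 ± 0.27 at day 5 (adjusted p = 7.94e-09) and -1.01 ± 0.24 at day 12 (adjusted p = 0.00658). The day 12 call was lost without cone day 12 replicate 3 (0.0519) or rod day 12 replicate 3 (0.0503) and was -1.31 ± 0.21 (adjusted p = 0.000122) without rod day 12 replicate 2. At day 21 (-0.66 ± 0.24, adjusted p = 0.0862) and day 35 (-0.71 ± 0.24, adjusted p = 0.0517) it was not called, although no cone library reached the lowest rod library. Over days 5 to 35 the mean difference was -1.41 and was called (adjusted p = 1.58e-09). The cone step exceeded the rod step by 2.47 ± 0.44 from day 0 to day 5 (adjusted p = 0.00514) and by 2.25 ± 0.35 from day 5 to day 12 (adjusted p = 0.00150). In order of mean level the 11 groups ran from untreated and cone primed through cone day 5 to cone days 12, 35 and 21, then rod primed and rod days 5, 35, 21 and 12. Neighbours in that order overlapped except at the steps into and out of cone day 5.

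**Figure D3:**
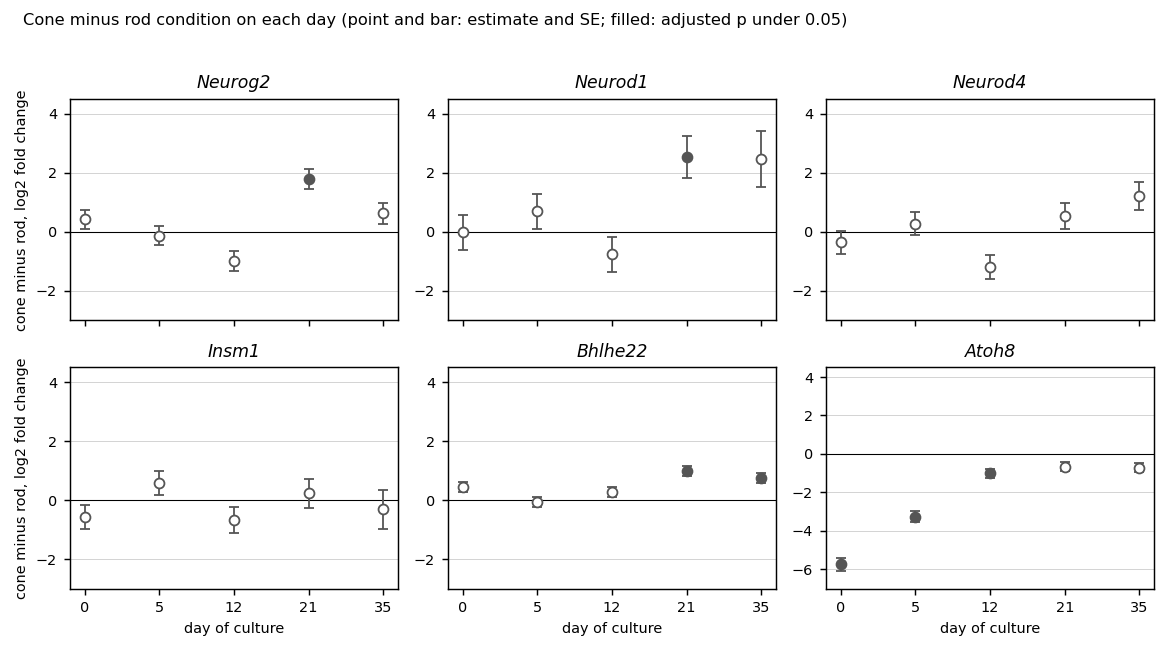
Log2 fold change, cone minus rod, on each day for the 6 genes detected at all days, with its SE from a fit of all 33 libraries; filled points have an adjusted p under 0.05. Atoh8 rises from -5.73 at day 0 to -0.71 at day 35, Neurog2 and Neurod1 are called at day 21 only, and Bhlhe22 at days 21 and 35.

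The genes most like Atoh8 over the 33 libraries, in Pearson correlation of log2 CPM, were Dhrs3 (r = 0.97), which reduces retinaldehyde to retinol, and Rarb (r = 0.969), a retinoic acid receptor. Dhrs3 averaged 0.155 CPM in untreated, 0.262 CPM in cone primed and 50.9 CPM in rod primed cells, and Rarb 0.613, 0.614 and 97.3 CPM. In cone cultures both climbed with Atoh8, to 93.5 CPM for Dhrs3 and 29.7 CPM for Rarb at day 35. Rod cultures held 396 and 119 CPM of them at day 35. The ratio between conditions thus narrowed from day 0 in these genes too, but stayed wider than in Atoh8. For the other genes the highest values were Igsf21 with Neurod4 (0.993), Crx with Neurod1 (0.992), Neurod4 with Insm1 (0.971), Marcksl1 with Atoh7 (0.954), Idh1 with Ptf1a (0.927), Cxcr4 with Neurog2 (0.925) and Tigd5 with Bhlhe22 (0.865). Among the members, Neurod1 and Neurod4 reached 0.981, Neurod4 and Insm1 0.971, and Atoh7 and Ptf1a 0.949, while Atoh8 was negative with all 7 others (-0.737 to -0.547). These correlations describe 33 libraries that share days and conditions in groups of 3.

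**Figure D4:**
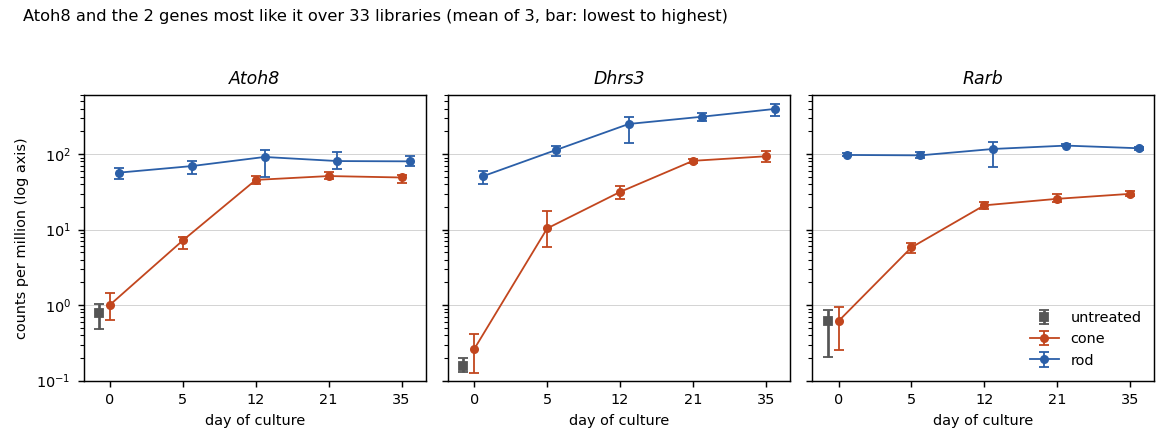
Mean level in CPM on a log axis of Atoh8, Dhrs3 and Rarb by day and condition, with bars from the lowest to the highest of 3 libraries. All 3 genes are near or under 1 CPM on average in untreated and cone primed cells and above 50 CPM in rod primed cells. The cone curve comes closest to the rod curve for Atoh8.

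Counted over the set, more members were called from day 0 to day 35 than between conditions on any day. The same held for the share of all genes called, so this contrast is not particular to the 8 genes. From day 0 to day 35, 7 of 8 members were called in cone cultures (6 lower, and Atoh8 higher), where 57.7% of all genes were called, and 7 of 8 in rod cultures (all lower, Atoh8 the exception), where 55.6% were called. The median log2 change over the 8, with bounds in place of groups at 0, was -4.95 and -5.51, against 0.03 and 0.04 over all genes. In cone cultures 3 members were called from day 0 to day 5 (22.3% of all genes), 7 from day 5 to day 12 (43.2%), 1 from day 12 to day 21 (3.36%) and 1 from day 21 to day 35 (0.915%). In rod cultures 2 were called from day 0 to day 5 (17.5% of all genes), 3 from day 5 to day 12 (18.3%), 4 from day 12 to day 21 (11.2%) and 1 from day 21 to day 35 (1.54%). Without rod day 12 replicate 2 the rod count was 6 from day 5 to day 12 (24.4% of all genes) and 2 from day 12 to day 21 (2.99%).

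Between conditions 2 of 8 members were called at day 5 (9.28% of all genes), 1 at day 12 (10.1%), 3 at day 21 (9%) and 1 at day 35 (12.3%). For the mean over days 5 to 35 it was 3 (27.8%). A difference between the cone step and the rod step was called for 1 member from day 0 to day 5 (0.562% of all genes), 1 from day 5 to day 12 (3.21%), 1 from day 12 to day 21 (0.43%) and 0 from day 21 to day 35 (0.00551%). In that last interval 1 member had an unadjusted p under 0.05, and DESeq2 and voom called 0 members. A change of the cone minus rod difference with day, tested over all 5 days at once, was called for 3 members (9.22% of all genes): Atoh8 (adjusted p = 1.83e-08), Neurog2 (0.00511) and Bhlhe22 (0.0298). Without cone day 12 replicate 2 it was called also for Neurod1 (0.0194) and Neurod4 (0.0159), as were their step differences from day 12 to day 21 (4.20 and 2.32, adjusted p = 0.0338 and 0.0487). With all libraries those were 3.30 and 1.73 (adjusted p = 0.107 and 0.180). Without cone day 21 replicate 1 the change with day was called for Neurod1 (0.0457) and lost for Bhlhe22 (0.0799), while the day 21 differences of Neurog2, Neurod1 and Bhlhe22 kept their calls (0.00312, 0.0168 and 0.00521).

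Partners and opponents of the bHLH factors moved less uniformly. Among the 3 E proteins, Tcf3 was higher in rod primed than untreated cells (0.52 ± 0.12, adjusted p = 0.00724), and at day 35 it was lower than at day 0 in cone (-0.41 ± 0.12, adjusted p = 0.00579) and rod cultures (-0.83 ± 0.12, adjusted p = 2.58e-06). Tcf12 rose by 0.40 ± 0.11 from cone day 5 to day 12 (adjusted p = 0.00398). Of the 4 Id inhibitors, 2 were higher in rod primed than untreated cells, where 10.3% of all genes were called. Id2 averaged 33.8 CPM in rod primed and 6.69 CPM in untreated cells (2.34 ± 0.28, adjusted p = 1.74e-06), and cone minus rod it was -1.94 at day 0 and -2.05 at day 5. From cone day 5 to day 12, when Neurod1 and Neurod4 fell, 3 Id genes rose and 1, Id4, fell (-0.82 ± 0.33, adjusted p = 0.0436). Over all genes 43.2% were called in that interval. Without cone day 12 replicate 2 the 3 higher calls stood and 0 were lower, where 42.2% of all genes were called. In rod cultures the median log2 change of the 4 over that interval was 0.12, against 0.03 over all genes.

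Among the 5 Hes and Hey repressors the pair of best known Notch targets parted. Hes1 was higher (1.86 ± 0.22, adjusted p = 1.96e-06) and Hes5 lower (-1.53 ± 0.33, adjusted p = 0.00310) in rod primed than in untreated cells. By day 35 Hes5 had gone from 48.0 to 0.395 CPM in cone and from 15.9 to 0.150 CPM in rod cultures, while Hes1 had risen by 2.59 ± 0.22 and 1.00 ± 0.21. Of 13 Notch ligands and proneural target genes, 10 were lower and 2 higher at day 12 than at day 5 in cone cultures (median -2.08, against 0.03 over all genes), and 7 were lower and 1 higher in rod cultures (median -1.31). The shares of all genes called were 43.2% and 18.3%. Without rod day 12 replicate 2 the rod count was 10 lower and 1 higher, where 24.4% of all genes were called. Dll3 and Dll4, ligands that proneural factors switch on, fell to 0.440 and 0.608 CPM in cone cultures (-4.11 ± 0.60 and -4.38 ± 0.56). Jag1, a Notch ligand also made by many other cell types, was 1 of the 2 that rose (2.87 ± 0.33, adjusted p = 1.27e-07).

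Other bHLH genes changed as well. Of 14 further neural bHLH factors 10 passed the filter. Neurog1, the nearest relative of Neurog2, had 54 counts over the 3 cone libraries and 0 over the 3 rod libraries at day 5, and was at 0 in cone cultures at day 12. Olig1 and Olig2 were higher in cone than in rod cultures at day 12, by 6.18 ± 0.63 and 5.98 ± 0.59 (adjusted p = 3.06e-07 and 3.88e-07). Bhlhe40, a repressor that responds to hypoxia, was 5.70 ± 0.34 higher at day 35 than at day 0 in cone cultures (adjusted p = 2.06e-13).

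Markers of other cell types moved with the days. Mesenchyme genes (6, such as Col1a1 and Dcn) summed to 1.15 to 8.17 CPM in the primed cells, 302 to 369 CPM at cone day 12 and 497 to 3552 CPM at cone day 35, against 16.0 to 50.9 and 209 to 697 CPM in rod cultures. All 6 had counts in cone and rod cultures at day 12 and day 35. Astrocyte genes (5) summed to 3.56 to 14.7 CPM in the primed cells and 246 to 409 CPM at day 35. Microglia genes (6) summed to 46.0 to 238 CPM in cone and 4.13 to 7.20 CPM in rod cultures at day 35. Muller glia genes (6) summed to 293 to 344 CPM in cone primed and 598 to 716 CPM in rod primed cells, and to 1720 to 2364 and 1261 to 3189 CPM at day 35. Endothelium genes (4) went from 292 to 366 CPM in the primed cells to 130 to 235 CPM in cone and 41.6 to 107 CPM in rod cultures at day 35. Of these 4 genes, only 2 passed the filter on low counts in the fits that left out a day 12 replicate 2. Cell cycle genes (8) summed to 859 to 1473 CPM in cone primed and 1746 to 2212 CPM in rod primed cells. At day 35 they summed to 253 to 594 and 394 to 687 CPM. The course between was not a steady fall. From day 5 to day 12, 7 of the 8 cell cycle genes were higher and 0 lower in cone cultures, where 43.2% of all genes were called. In rod cultures 0 were called over that interval, where 18.3% of all genes were called. The part of these shifts in the changes of the 8 genes was not tested.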

How the data were processed

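RNA from 33 libraries was prepared with Takara low-input kits, per the labels' protocols. The submitters' processing notes name HISAT2, StringTie, HTSeq and GRCm38, with no versions. The authors deposited whole-number counts per gene, and a second table per library with TPM, FPKM and coverage values. Summary lines without a gene held 65.1% to 73.1% of reads and were left out. Coverage and FPKM were not used. The deposited TPM values disagreed with the counts (Spearman rho 0.355 to 0.497 across tested genes within a library) and listed Ptf1a at 0 in all 33 libraries, although 11 of them held 10 or more of its counts. TPM served only as an alternative, on log2 of TPM plus a pseudocount of 1 with limma.

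Counts were tested in 1 fit of all libraries with edgeR 4.0.16 (R 4.3.3; filterByExpr with a minimum count of 10, TMM, glmQLFit and glmQLFTest), adjusted by Benjamini-Hochberg over 18150 genes, with calls at 0.05. The common biological coefficient of variation was 0.213. The SE is the log2 fold change over the square root of F. Groups at 0 enter as bounds at 3 counts per group, and groups with 1 to 3 counts as ratios with exact 95% intervals, which cover counting error only. CPM are counts over TMM-scaled library sizes. Log2 CPM for correlations used a prior count of 2. The members, the gene lists and the comparisons were chosen with earlier results of these data known. All 8 members are named. Of each list, counts are given and up to 4 called genes with the largest change, or genes known to act with a member. The 2 genes most like a member were taken among 11916 others (11917 for Atoh7 and Ptf1a) whose mean log2 CPM was 1 or more, passing over unnamed Gm and Rik models. Alternatives were DESeq2 1.42.0, its size factors, no filter, limma 3.58.1 voom with quality weights, a replicate block, the compared libraries alone, and each library left out. The edgeR fit was tested on simulated data. Promoters came from RefSeq and gene models from GENCODE M21.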

Additional observations from a re-analysis of the deposited data

Results flagged for a closer look

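In 3 cases a change from one day to the next differed between the cone and the rod condition by a test of the difference itself. From day 0 to day 5 Atoh8 rose in cone cultures by 2.47 more on the log2 scale than in rod cultures, and from day 5 to day 12 by 2.25 more, so the low cone level came near the rod level. From day 12 to day 21 Neurog2 rose in cone cultures while it fell in rod cultures, a difference in log2 change of 2.76.

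The test of whether the cone minus rod difference changed over the 5 days passed for Atoh8 (adjusted p = 1.83e-08), Neurog2 (adjusted p = 0.00511) and Bhlhe22 (adjusted p = 0.0298), by edgeR. The Bhlhe22 result was lost in 10 of the fits that left out 1 library, at an adjusted p of up to 0.0848 (without cone day 5 replicate 2).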

How the results depend on the processing

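Of 54 member changes called, the alternatives that kept all libraries, TPM apart, left 308 of 321 values with their direction and call. Leaving out 1 library at a time left 422 of 468, and 14 changes lost their call at least once. Depth limits Atoh7 and Ptf1a, which had 0 counts in most libraries after day 5.

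Counts of members called moved by over 1.5 times as follows. These counts, and those by setting further below, stand without the share of all genes called in the same fit. They describe the settings and are not read as results about the members. Under voom they were 3 for cone minus rod at day 0, 4 at day 12 and 2 at day 35, 2 for rod primed minus untreated, 5 for cone day 0 to 5, 2 for cone day 21 to 35, 6 for rod day 5 to 12 and 0 for rod day 21 to 35. Voom also gave 3, 2 and 2 for the step differences of days 0 to 5, 5 to 12 and 12 to 21, and 7 for the change with day. Under DESeq2 they were 3 and 4 for cone minus rod at days 12 and 35, 2 for cone day 21 to 35, 5 for rod day 5 to 12, 2 for the step difference of days 12 to 21 and 6 for the change with day. DESeq2 size factors gave 2 at day 35. With no filter they were 2 at day 12, 2 at day 35, 2 for the step difference of days 12 to 21 and 5 for the change with day.

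Fitting the compared libraries only gave 0 for cone minus rod at day 12 and 2 at day 35, 2 for rod primed minus untreated and 5 for cone day 0 to 5. It gave 0 for cone day 21 to 35, 1 for rod day 5 to 12, 0 for rod day 12 to 21, 0 for rod day 21 to 35, and 2 and 0 for the step differences of days 0 to 5 and 12 to 21. That fit has fewer libraries to estimate the spread.

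TPM gave 1, 0, 1 and 0 for cone minus rod at days 5, 12, 21 and 35, and 1 for their mean. Between days it gave 4, 0, 0 and 4 in cone cultures (day 5 to 12, 12 to 21, 21 to 35 and 0 to 35) and 1, 0, 0 and 4 in rod cultures (day 0 to 5, 12 to 21, 21 to 35 and 0 to 35). It gave 0 for the step differences of days 0 to 5, 5 to 12 and 12 to 21, and 1 for the change with day. Under TPM 6 changes reversed: Bhlhe22 cone minus rod at day 35 (-0.32) and in the mean (-0.026), Neurod1 in the mean (-0.16), Bhlhe22 from cone day 0 to 5 (0.85) and from rod day 0 to 35 (0.68), and the Atoh8 step difference of days 0 to 5 (-0.42). In the deposited TPM, mt-Nd6, the mitochondrial protein gene on the opposite strand to the rest, had a median of 13465, against 159 for the other 12, while in CPM it had 206, against 619. Whether TPM and counts read different strands was not tested, so the TPM values may not measure the same transcripts. For the other moved values the cause was not tested.

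With 1 library left out, members called ranged from 1 to 2 for cone minus rod at day 5, 0 to 3 at day 12, 2 to 3 at day 21, 1 to 3 at day 35 and 2 to 4 in the mean. In cone cultures they ranged from 2 to 3 (day 0 to 5), 6 to 7 (day 5 to 12), 0 to 1 (day 12 to 21 and day 21 to 35) and 7 to 8 (day 0 to 35). In rod cultures they ranged from 2 to 6 (day 5 to 12), 2 to 4 (day 12 to 21) and 0 to 1 (day 21 to 35). Step differences ranged from 1 to 3 (day 5 to 12) and 0 to 3 (day 12 to 21), and the change with day from 2 to 5.

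Replicate numbers did not pair the libraries: in 0 of 17 comparisons were all 3 same-number correlations over 0.1 (range -0.226 to 0.513). A replicate block kept all 54 calls and gave 2 members at day 12, 2 at day 35 and 5 for the change with day. The list counts without a day 12 library were chosen after seeing the data.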
